A study of Mus musculus with 19 samples.

Results

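The comparison described here is the transcript difference between mCK-hLPL and wild-type (WT) mouse muscle pooled over both dietary phases. Its members are all 19 libraries of the series, 10 from mCK-hLPL animals and 9 from WT animals, and the quantity reported is the genotype term of an additive model of genotype and phase. RNA was sequenced from the gastrocnemius, the large calf muscle, of FVB mice that were either in weight loss maintenance (WLM) or on the first day of weight regain after 24 hours of refeeding (REL). The groups were WT_WLM (n = 5), mCK-hLPL_WLM (n = 5), WT_REL (n = 4) and mCK-hLPL_REL (n = 5). mCK-hLPL animals carried human lipoprotein lipase driven by the muscle creatine kinase promoter, which is active in striated muscle, and the controls are wild type in the labels. The age, sex and transgenic line of each library, and whether each library is a separate animal, are not given in the labels used here, so p-values measure the spread between these libraries.

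Lipoprotein lipase sits on the capillary wall and splits circulating triglyceride into fatty acids that the muscle fibre takes up, and raising it in muscle raises the fatty acid supply to the fibre. A muscle fibre receives its motor nerve at the neuromuscular junction, where acetylcholine opens a receptor built from alpha, beta, delta and, in adult muscle, epsilon subunits. In fetal and denervated muscle a gamma subunit takes the place of epsilon. Acetylcholinesterase ends the signal by splitting acetylcholine in the cleft.

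Between 35595030 and 51073355 reads were counted per library. Skeletal muscle fibre markers summed to 116000 to 184000 CPM (counts scaled to the library size) in WT and 116000 to 168000 CPM in mCK-hLPL, and 0 of these 10 markers passed the threshold. The table has no row for the human transgene. Mouse Lpl, the endogenous gene, had a lowest, median and highest value of 496, 691 and 764 CPM in WT and of 649, 754 and 941 CPM in mCK-hLPL, so the genotypes overlapped. Its log2 difference, mCK-hLPL minus WT, was 0.21 ± 0.09 (SE; edgeR adjusted p = 0.618), and the sources used here do not say if reads of the human enzyme could be assigned to it. Of 11 lists of markers for other cell types, none held a gene past the threshold. All 7 tested red cell transcripts lay above 0 with a median log2 difference of 0.75, and their sum ran from 498 to 4480 CPM in WT and from 871 to 11700 CPM in mCK-hLPL, the highest being mCK-hLPL_REL replicate 1 (exact permutation p within phase = 0.0866, adjusted over 12 lists, the fibre list included, 0.993). All 11 tested lymphoid markers lay below 0 with a median of -0.45. Their sum, mostly Ighm, ran from 166 to 464 CPM in WT and from 203 to 493 CPM in mCK-hLPL. It did not differ past the threshold (exact permutation p within phase = 0.311, adjusted over the same 12 lists 0.993). In bulk tissue, fewer cells of a type and less RNA per cell cannot be told apart.

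With a threshold of 0.05 on the adjusted p, 37 of 17028 genes differed between genotypes, 0.217% of those tested. In mCK-hLPL, 22 were higher (0.129%) and 15 were lower (0.0881%). The absolute log2 differences of the 37 ran from 0.27 to 1.62 with a median of 0.47. The median log2 difference of all genes was 0.00, and 50.2% of all genes lay above 0; TMM scaling centres the bulk of genes near 0, so differences are relative to it. At an unadjusted p under 0.05 there were 1194 genes, against 851 expected by chance. Of the 37, 14 belonged to one of the 26 pathway lists considered and 23 to none. Without WT_WLM replicates 1 and 5 and mCK-hLPL_WLM replicate 3, which held most lymphoid transcripts other than Ighm, 18 genes were called, all among the 37, and without mCK-hLPL_REL replicate 1, which held most red cell transcripts, 40. Chrna1, Chrne, Ache, Katnal2, Ostn, Fbp2, Oxct1 and Pcca were called in both. The volcano plot sets the 37 against all genes tested.

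**Figure D1:**
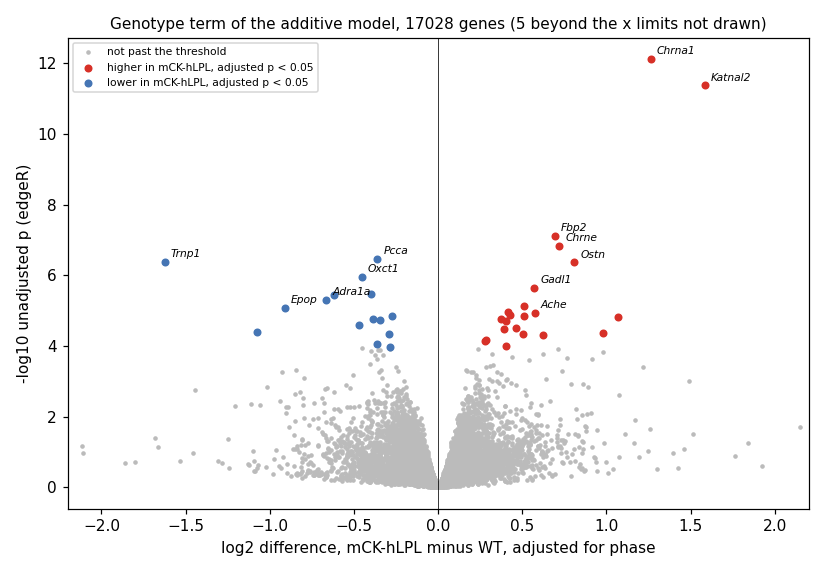
Log2 difference between genotypes adjusted for phase (x axis) against the negative log10 of the unadjusted edgeR p (y axis) for 17028 genes. Red points are the 22 genes higher and blue points the 15 genes lower in mCK-hLPL; Chrna1 and Katnal2 stand highest, and the 5 genes beyond the x limits are not drawn and were not called.

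The smallest p belonged to Chrna1, which encodes the receptor's alpha subunit. It lies on the minus strand of chromosome 2 between 73563215 and 73580338 (GRCm38). In WT_WLM its CPM were 10.2, 12.3, 13.8, 14.4 and 11.8, and in mCK-hLPL_WLM they were 27.6, 31.4, 32.0, 25.9 and 36.4. In WT_REL they were 14.6, 10.6, 14.1 and 11.8, and in mCK-hLPL_REL 32.2, 31.9, 30.5, 28.8 and 26.4. Every one of the 10 mCK-hLPL libraries lay above every one of the 9 WT libraries, and its phase term was -0.00 (edgeR adjusted p = 0.98). The log2 difference was 1.26 ± 0.08 (SE; edgeR adjusted p = 1.31e-08). The alpha subunit carries most of the acetylcholine binding site and is present in duplicate in each receptor.

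Chrne, the epsilon subunit of the adult receptor (chromosome 11, 70614883 to 70619216, minus strand), was also higher. Its lowest, median and highest CPM were 5.99, 8.2 and 10.1 in WT and 10.2, 13.5 and 15.6 in mCK-hLPL, so all libraries were separated by genotype, the closest pair by a narrow margin. The log2 difference was 0.72 ± 0.09 (SE; edgeR adjusted p = 0.000637). The other subunits did not pass. Chrnb1 (beta) was at 0.11 ± 0.08 (edgeR adjusted p = 0.831), Chrnd (delta) at -0.25 ± 0.12 (edgeR adjusted p = 0.682) and Chrng (gamma), the fetal subunit, at -0.51 ± 0.30 (edgeR adjusted p = 0.759). For all 3 the CPM of the genotypes overlapped in both phases, and Chrng lay near the floor, with 3 to 26 reads per library. Of the 5 receptor genes, 2 were higher and 0 lower in mCK-hLPL, against 0.129% higher and 0.0881% lower among all genes. Their median log2 difference was 0.11 against 0.00 for all genes.

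Acetylcholinesterase, Ache (chromosome 5, 137287519 to 137294466, plus strand), had a lowest, median and highest of 17.5, 21 and 24.3 CPM in WT and of 23.2, 30.7 and 41.5 CPM in mCK-hLPL. The genotypes overlapped by 1 library at the low end of mCK-hLPL in WLM and did not overlap in REL. The log2 difference was 0.57 ± 0.10 (SE; edgeR adjusted p = 0.0125). Its anchors did not pass. Colq, the collagen tail that fixes the enzyme at the junction, was at 0.07 ± 0.09 (edgeR adjusted p = 0.914), and Prima1, the membrane anchor, at -0.69 ± 0.20 (edgeR adjusted p = 0.329). The related Bche was at 0.09 ± 0.11 (edgeR adjusted p = 0.915). None of 20 tested genes of the agrin, MuSK and rapsyn machinery that clusters the receptor passed, and their median was -0.02; Musk, with the smallest p of these, was at 0.22 ± 0.09 (edgeR adjusted p = 0.654). Chrna1 itself is known to rise on loss of nerve input. A list of 18 other genes linked to nerve input, which holds no receptor subunit, had 0 past the threshold (median -0.02). The direction in which each of them moves on loss of nerve input was not set, so their signs are not read. Its member Hdac9 was at 0.46 ± 0.16 (edgeR adjusted p = 0.475). Of 13 myogenic and MEF2 factors 0 passed (median -0.05), with Myod1 at -0.36 ± 0.12 (edgeR adjusted p = 0.402). Of all genes 0.217% passed, and no call in lists of this size is near that share. Loss of nerve input was not tested.

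**Figure D2:**
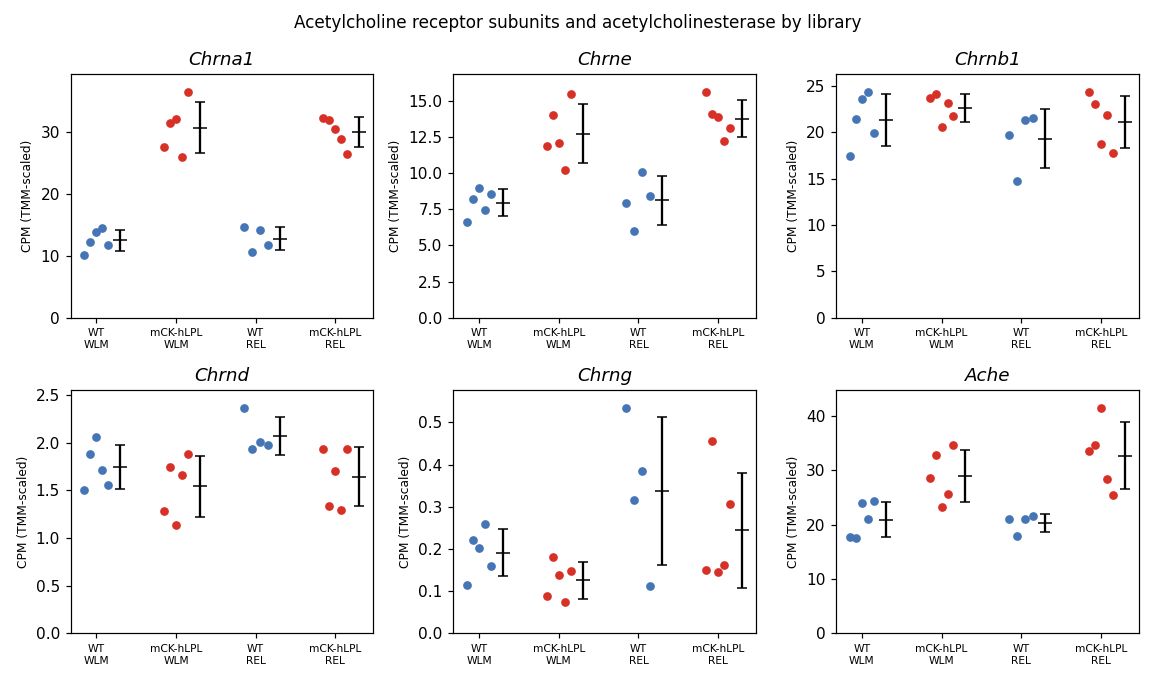
CPM by library (points) with mean and SD (black) for the receptor subunits Chrna1, Chrne, Chrnb1, Chrnd and Chrng and for Ache in the 4 groups, blue for WT and red for mCK-hLPL. For Chrna1 the mCK-hLPL libraries lie from 25.9 to 36.4 and the WT libraries from 10.2 to 14.6; Chrnb1, Chrnd and Chrng overlap between genotypes.

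Receptor subunit genes carry E-boxes, CANNTG sites of which only some forms are read by myogenic factors. Chrne is known for an N-box, CCGGAA, read by ETS factors at the synapse. The promoters of the 3 called genes of this system are shown because they share a direction and differ in size. They are the 300 bases from 250 before to 50 after the annotated start in RefSeq on GRCm38.p6, written along the gene. The search covered both strands, and capitals mark E-boxes and the N-box. Chrna1 is at chr2:73580289-73580588 on the minus strand, Chrne at chr11:70619145-70619444 on the minus strand, and Ache at chr5:137288004-137288303 on the plus strand.
Chrna1: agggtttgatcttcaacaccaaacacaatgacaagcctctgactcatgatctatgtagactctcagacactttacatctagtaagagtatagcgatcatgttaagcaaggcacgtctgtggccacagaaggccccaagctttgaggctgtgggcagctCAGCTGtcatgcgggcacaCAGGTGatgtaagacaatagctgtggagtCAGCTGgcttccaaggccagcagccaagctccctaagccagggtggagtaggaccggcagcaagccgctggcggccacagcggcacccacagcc
Chrne: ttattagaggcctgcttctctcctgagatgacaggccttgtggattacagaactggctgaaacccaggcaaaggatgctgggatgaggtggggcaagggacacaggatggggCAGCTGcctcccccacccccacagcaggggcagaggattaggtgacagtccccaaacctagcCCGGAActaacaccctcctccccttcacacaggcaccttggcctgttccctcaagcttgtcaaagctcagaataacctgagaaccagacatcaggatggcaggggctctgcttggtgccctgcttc
Ache: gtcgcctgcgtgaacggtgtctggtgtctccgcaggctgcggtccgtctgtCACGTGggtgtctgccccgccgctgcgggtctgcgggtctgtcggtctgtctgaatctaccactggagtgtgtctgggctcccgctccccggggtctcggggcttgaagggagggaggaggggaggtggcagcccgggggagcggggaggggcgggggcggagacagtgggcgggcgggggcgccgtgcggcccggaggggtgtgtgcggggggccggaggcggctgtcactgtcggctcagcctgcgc
The Chrna1 window holds 3 E-boxes, which begin 92, 73 and 44 bases before the start, and 2 of them read CAGCTG. The Chrne window holds 1 E-box, 138 bases before the start, and 1 N-box, 76 bases before it. The Ache window holds 1 E-box, 199 bases before the start, and no N-box. Chrnb1 and Chrng, which did not pass, have windows that hold 3 E-boxes each. Among 32851 RefSeq promoters of the same length, 72.3% held an E-box, 17.6% held 3 or more, 1.9% held 2 or more CAGCTG and 14.9% held an N-box. A match describes letters in a window only.

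Katnal2, a member of the katanin family of microtubule-severing proteins (chromosome 18, 76977148 to 77047308, minus strand), had the largest rise among the genes with full symbols. Its CPM were 2.69, 2.0, 2.32, 2.62 and 2.04 in WT_WLM against 6.46, 6.17, 6.65, 6.04 and 7.62 in mCK-hLPL_WLM. In REL they were 1.26, 1.46, 1.76 and 1.68 in WT against 6.97, 4.34, 4.67, 5.24 and 3.71 in mCK-hLPL. All libraries were separated by genotype, and both genotypes were lower in REL (phase log2 difference -0.49, edgeR adjusted p = 0.00301). The genotype log2 difference was 1.58 ± 0.11 (SE; edgeR adjusted p = 3.63e-08). None of the other called genes lay within 1 Mb of it.

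Ostn encodes osteocrin (musclin), a peptide secreted by muscle that binds the natriuretic peptide clearance receptor. Its lowest, median and highest were 25.6, 41.2 and 50.3 CPM in WT and 46.9, 70 and 85.7 CPM in mCK-hLPL, separated within each phase and overlapping across phases. The log2 difference was 0.81 ± 0.11 (SE; edgeR adjusted p = 0.00105). Ccl25, a chemokine, was higher by 0.51 ± 0.09 (SE; edgeR adjusted p = 0.00998), at 6.71 to 10.7 CPM in WT and 9.64 to 15.1 CPM in mCK-hLPL. Of 20 tested secreted muscle factors, these 2 were higher and 0 lower, with a median of 0.06, against 0.129% higher among all genes. Sema3a, a secreted semaphorin that repels growing axons, was higher by 0.62 ± 0.12 (SE; edgeR adjusted p = 0.0263), separated by genotype in WLM only. It was 1 of 14 class 3 semaphorin and receptor genes and the only one to pass.

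Oxct1, the mitochondrial CoA transferase that lets muscle burn ketone bodies (chromosome 15, 4026383 to 4155344, plus strand), had a lowest, median and highest of 152, 194 and 230 CPM in WT and of 114, 142 and 168 CPM in mCK-hLPL. The genotypes were separated within each phase, and the log2 difference was -0.45 ± 0.07 (SE; edgeR adjusted p = 0.00239). It was the only 1 of 8 ketone body genes to pass, against 0.0881% called lower among all genes. Bdh1, which interconverts the main ketone bodies, was at -0.25 ± 0.12 (edgeR adjusted p = 0.71).

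Muscle starts the breakdown of leucine, isoleucine and valine with the aminotransferase Bcat2 and the branched-chain keto acid dehydrogenase, whose E2 core is Dbt. The products of valine and isoleucine reach the citric acid cycle through propionyl-CoA, which Pcca and Mmut carry on to succinyl-CoA. Of the 24 genes of this breakdown, 4 were lower and 0 higher, 20 of 24 lay below 0, and the median was -0.12 against 0.00 for all genes. All 11 with an unadjusted p under 0.05 (edgeR) were lower. Over all genes, 0.0881% were called lower, 50.2% lay above 0, and 1194 of 17028 had an unadjusted p under 0.05. The list was chosen with earlier results of these data known.

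Pcca, the alpha subunit of propionyl-CoA carboxylase (chromosome 14, 122534324 to 122891100, plus strand), ran from 22.6 to 26.2 CPM in WT (median 24.2) and from 17 to 22 CPM in mCK-hLPL (median 18.5). No mCK-hLPL library reached the lowest WT library. Its log2 difference was -0.36 ± 0.05 (SE; edgeR adjusted p = 0.00105). Mmut, the mutase that follows it, was at -0.27 ± 0.05 (edgeR adjusted p = 0.013), and its genotypes were separated within each phase. Ivd, which oxidises the leucine product isovaleryl-CoA, was at -0.38 ± 0.07 (edgeR adjusted p = 0.0137). Acadsb, which oxidises the isoleucine product, was at -0.29 ± 0.06 (edgeR adjusted p = 0.0488). Dbt, at -0.28 ± 0.06 (edgeR adjusted p = 0.0505), and Bcat2, at -0.33 ± 0.07 (edgeR adjusted p = 0.0634), lay just outside the threshold, and Bckdha, the E1 alpha subunit, was at -0.13 ± 0.06 (edgeR adjusted p = 0.688). The call of Acadsb was lost in 17 of the 19 fits that each left out 1 library (adjusted p up to 0.14). Lymphoid markers other than Ighm were highest in WT_WLM replicates 1 and 5 and mCK-hLPL_WLM replicate 3; without these 3 libraries, of the 4 genes only Pcca kept its call, while Mmut was at -0.29 (edgeR adjusted p = 0.105), Ivd at -0.38 (0.0946) and Acadsb at -0.30 (0.241). The number of the 4 that kept their calls was also 1 without the phase term and 1 without the 3 libraries with the highest lymphoid sum, and 2 without the 3 with most liver transcripts.

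**Figure D3:**
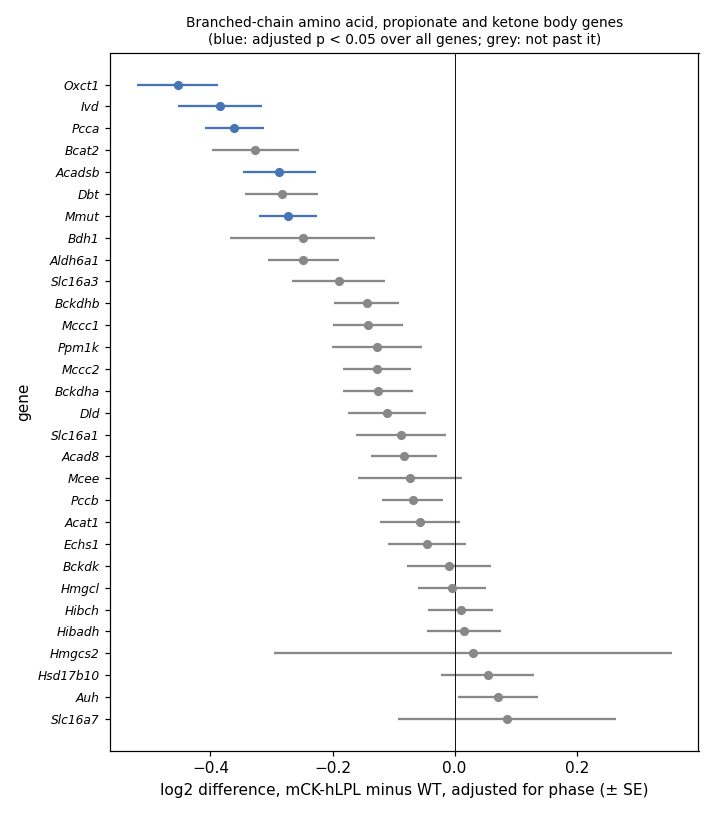
Log2 difference between genotypes adjusted for phase, with SE, for 30 genes of branched-chain amino acid, propionate and ketone body breakdown. Blue marks the 5 genes past the threshold (Ivd, Oxct1, Pcca, Acadsb and Mmut), all lower in mCK-hLPL, and grey the others.

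Outside those groups, fuel genes mostly did not pass. Fbp2, the muscle fructose bisphosphatase (chromosome 13, 62836877 to 62858422, minus strand), was the exception. It ran from 11.3 to 24.8 CPM in WT (median 17.5) and from 18.1 to 38.5 CPM in mCK-hLPL (median 27.1), separated within each phase but overlapping across phases. Its log2 difference was 0.69 ± 0.08 (SE; edgeR adjusted p = 0.000443). It was the only 1 of 30 glycolysis and glycogen genes to pass, and Hk2, the muscle hexokinase, lay at -0.36 ± 0.08 (edgeR adjusted p = 0.0505). None passed of 29 genes of lipoprotein lipase, fatty acid uptake, triglyceride synthesis, lipid droplets and lipolysis (median 0.00). The same held for 28 of fatty acid oxidation (median 0.00, Acadl at 0.29 ± 0.07, edgeR adjusted p = 0.115) and 18 PPAR, ERR and PGC-1 regulators (median -0.06). It also held for 20 of fatty acid synthesis (median -0.15), 30 of the citric acid cycle (median -0.05) and 36 of the respiratory chain (median 0.02). Of all genes 0.217% passed, and no call in lists of this size is near that share. By exact permutation within phase on log2 CPM, of the 13 genes Lpl, Ppara, Ppard, Ppargc1a, Pdk4, Ucp3, Cd36, Angptl4, Sln, Chrnb1, Chrnd, Musk and Myog, none had an adjusted p under 0.05 (the differences ran from -0.32 for Myog to 0.22 for Lpl, whose p was 0.0191 and adjusted p 0.124).

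**Figure D4:**
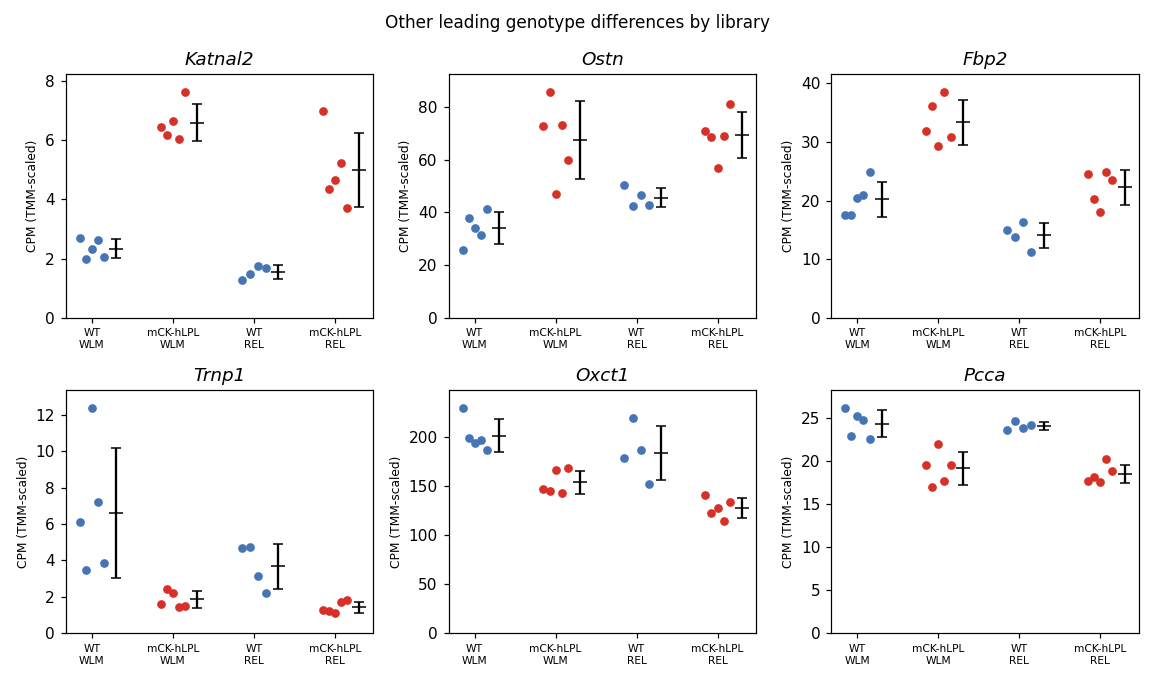
CPM by library (points) with mean and SD (black) for Katnal2, Ostn, Fbp2, Trnp1, Oxct1 and Pcca in the 4 groups, blue for WT and red for mCK-hLPL. In Pcca the mCK-hLPL libraries end at 22 and the WT libraries start at 22.6; in Trnp1 the WT libraries spread from 2.2 to 12.4.

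Of the other lower genes, Trnp1, a nuclear protein known from the developing cortex, had the largest difference, -1.62 ± 0.22 (SE; edgeR adjusted p = 0.00105), at 2.2 to 12.4 CPM in WT and 1.11 to 2.44 CPM in mCK-hLPL. Adra1a, the alpha-1A adrenergic receptor, was at -0.67 ± 0.11 (SE; edgeR adjusted p = 0.00718), at 2.37 to 4.04 CPM in WT and 1.41 to 3.01 CPM in mCK-hLPL, and was the only 1 of 9 adrenergic receptors to pass. Smad3, which relays TGF-beta signals, was at -0.47 ± 0.09 (edgeR adjusted p = 0.0176), the only 1 of 26 genes of its family list to pass. Smad7, its inhibitor, was at -0.38 ± 0.08 (edgeR adjusted p = 0.0648). Over all genes, 0.0881% were called lower. Adhfe1, Epop, Stxbp4, Lrtm2, the potassium channel gene Kcnc4 and the actin oxidase Mical2 were also lower, at log2 differences from -1.08 to -0.29.

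Of the other higher genes, Gadl1, an enzyme that can make beta-alanine, was at 0.57 ± 0.09 (edgeR adjusted p = 0.00425). Prxl2a, the heparan sulfate enzyme Hs6st2, Tspan14, Maged2, Plbd1, the potassium channel gene Kcnq5, Arl6ip5, Plpp1 and the ciliary transport gene Ift122 were higher by 0.28 to 0.51. H2-T10 and H2-T22, non-classical class I histocompatibility genes on chromosome 17, were higher by 0.42 ± 0.07 (edgeR adjusted p = 0.0125) and 0.39 ± 0.07 (edgeR adjusted p = 0.0211). They are near copies that the counting may not have told apart, and they are the only 2 called genes that lie within 1 Mb of each other. The 3 called genes with provisional symbols were 2310065F04Rik (lower) and Gm35048 and 2010300C02Rik (higher). Of the 35 called genes with an annotated position, 11 share exon sequence with a gene on the other strand, among them Pcca with Ggact, Oxct1 with BC037032, Ccl25 with Elavl1, Plpp1 with Mtrex and Ache with Gm42456; the strand setting is not given in the sources used here, so the share of their reads from each strand cannot be told apart. Of the 11 partners 8 were tested and 0 passed (smallest edgeR adjusted p = 0.722). Those of Gadl1, Oxct1, H2-T10 and Pcca lay on the same side as the called gene. Gm9385 was at 1.25 ± 0.71, BC037032 at -0.17 ± 0.26, BC023719 at 0.09 ± 0.11 and Ggact at -0.03 ± 0.06. On the other side, 2610203C22Rik, the partner of the lower gene Adhfe1, was at 0.44 ± 0.22. Elavl1, Mtrex and A930015D03Rik, partners of the higher genes Ccl25, Plpp1 and H2-T22, lay between -0.07 and -0.02.

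The additive model gives 1 difference for both phases, and for the 37 genes it was the same sign in WLM and REL in all 37. The 37 were chosen by the pooled term over these same libraries, which favours 1 sign in both phases. The shared sign is therefore no separate evidence. In 15 of the 37 the CPM of the genotypes did not overlap within either phase, against 0.123% of all genes. The choice of the 37 by the pooled term favours this too, so it is no separate evidence either. In 7 the genotypes did not overlap only within WLM and in 15 only within REL. WT_REL had 4 libraries and WT_WLM 5, so a lack of overlap arises more easily in REL and these 2 counts cannot be compared. In 5, Chrna1, Katnal2, Chrne and H2-T22 higher and Pcca lower, the 10 and the 9 libraries did not overlap at all. For the counts within 1 phase and over all libraries, no share of all genes is given, so they only describe these 37 genes. For Chrna1 the log2 difference was 1.29 ± 0.11 in WLM and 1.23 ± 0.12 in REL. The 2 smallest unadjusted interaction p among the 37 were those of Mical2 (0.0685), at -0.23 ± 0.10 in WLM and -0.50 ± 0.10 in REL, and Ostn (0.0757), at 0.99 ± 0.14 and 0.60 ± 0.15 (edgeR). By edgeR, 0 genes passed the interaction test (smallest adjusted p = 1); 403 had an unadjusted p under 0.05 and none of them was among the 37. DESeq2 called 4 interactions, none of a gene named here. Of the 37, 13 also differed by phase, against 21.5% of all genes; 10 of the 13 were lower in REL.

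**Figure D5:**
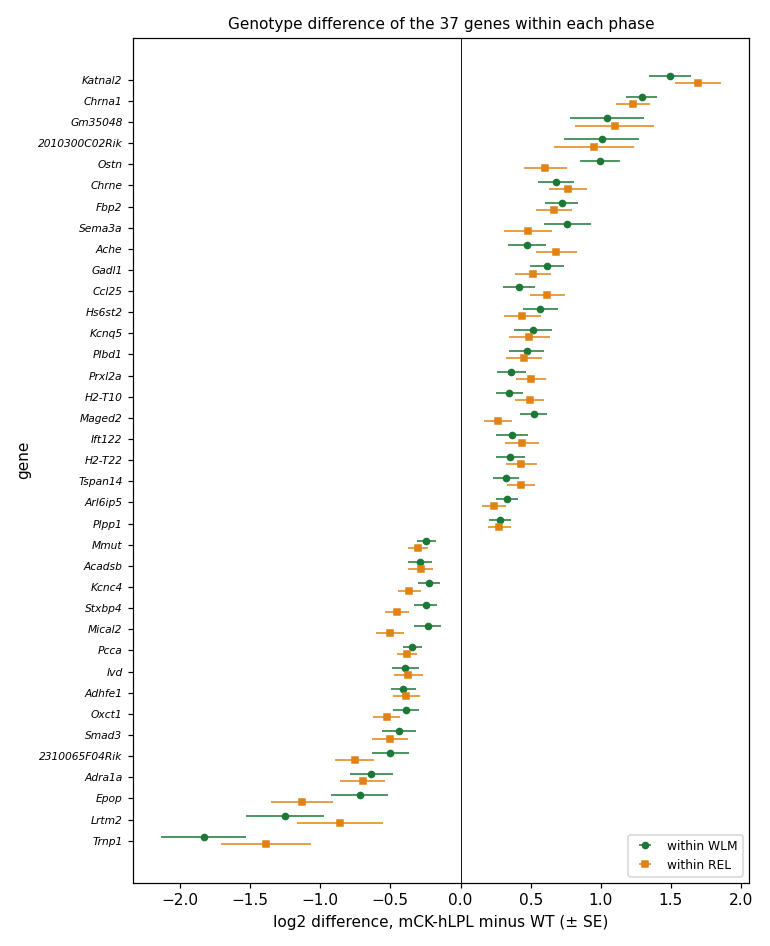
Log2 difference between genotypes with SE, estimated within WLM (green circles) and within REL (orange squares), for the 37 called genes ordered by the pooled difference. Each of the 37 lies on the same side of 0 in both phases, which their choice by the pooled difference favours. Chrna1 has 1.29 in WLM and 1.23 in REL.

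How firmly each call held was read from 19 fits that each left out 1 library. In these, 25 of the 37 kept their calls, among them Chrna1, Katnal2, Chrne, Ache, Ostn, Fbp2, Oxct1, Pcca, Mmut, Ivd, Trnp1, Adra1a and Smad3, and none of the 37 changed sign. The other 12 were lost at least once: Plbd1 in 2 of the 19 fits, H2-T22 in 5, Lrtm2 in 7, 2010300C02Rik in 8, Kcnq5 in 9, Sema3a in 10, Arl6ip5 and Plpp1 in 12 each, Kcnc4 in 13, Ift122 in 14, Mical2 in 15 and Acadsb in 17, with adjusted p of at most 0.14 by edgeR. With the red cell sum as a covariate 10 of the 37 were lost, among them Smad3, Sema3a and Acadsb, and without the phase term 13, among them Fbp2, Mmut and Ivd. Scaling by total counts lost 7, among them Ivd and Adhfe1. Leaving out WT_REL libraries A and B together lost 28, among them Ache, Mmut, Ivd, Adra1a and Smad3. With a replicate block over the remaining 17 libraries 25 were lost, among them Ache, Mmut, Ivd and Smad3. Chrna1, Katnal2, Chrne, Ostn, Fbp2, Oxct1, Pcca and Trnp1 kept their calls in both.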

How the data were processed

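The authors deposited 1 table of whole-number counts per gene symbol for 19 gastrocnemius libraries (NuGEN Universal Plus mRNA kit, per the labels). The builds mm10 and GRCm38 and the tools Salmon 0.14.2 and DESeq2 1.28.1 are listed per the submitters' processing notes; what each was used for, the annotation and the strand setting are not given in sources used here. The 24 rows whose symbols a spreadsheet had turned into dates hold 0.0628% of counts and are not named. The names of 2 WT_REL columns could not be matched to a title; these libraries are called A and B.

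The 54176 rows were filtered with filterByExpr (minimum count 10, minimum total 15), leaving 17028 genes, scaled by TMM (factors 0.88 to 1.17) and fitted in R 4.3.3 by edgeR 4.0.16 quasi-likelihood (glmQLFit, glmQLFTest) with genotype plus phase; the genotype term was tested two-sided with Benjamini-Hochberg adjustment over all genes. The SE is the log2 difference over the root of its F statistic. CPM use TMM-scaled library sizes. Exact permutation tests (two-sided) permuted genotype within phase over 31752 arrangements, using log2 CPM (prior count 2) or log2 of summed marker CPM plus 1; the smallest p they can give is 6.3e-05. A chi-square over genes, divided by its degrees of freedom, was at least 23.1 in all 36 pairs of libraries of 1 group, so none was the same library counted again; a second library from 1 animal would not be told apart this way. Simulated counts were used to test the method.

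The genes named are all those past the threshold, the member of smallest p or the called members of each list, 13 genes chosen by name and the 5 next by p, Ccdc85c, Mfsd1, Dbt, Hpgd and Hk2. Of these 5, Ccdc85c was at -0.45, Mfsd1 at 0.24 and Hpgd at 0.71 (each edgeR adjusted p = 0.0505). The result of 1 gene that this rule names, which did not pass the threshold, is not reported here. Genes, lists and tests were chosen with earlier results of these data known. Lists not discussed held no called gene: slow fibre (first Myh7, -0.42), fast fibre (Ampd1, -0.18), heat shock (Hspa1a, -1.06), interferon (Rsad2, 0.60), collagen (Eln, -0.30), atrophy (Fbxo31, -0.25), energy cost (Atp2a2, -0.33) and prostaglandin (Hpgd). Coordinates come from GENCODE M21 on GRCm38 and promoters from RefSeq. Other settings changed the scaling, filter, test or covariates, added a replicate block, or dropped libraries.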

Additional observations from a re-analysis of the deposited data

Results flagged for a closer look

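In 368 groups of 4 or 5 libraries examined for a library far from the others, 24 stood apart, where chance alone gives about 18. Among called genes they were Oxct1 at 230 CPM in WT_WLM replicate 1, Adra1a at 2.37 CPM in WT_WLM replicate 2 and 3.01 CPM in mCK-hLPL_WLM replicate 3, H2-T10 at 24.5 CPM, Gm35048 at 0.977 CPM and Sema3a at 3.05 CPM in WT_WLM replicate 2, Ache at 17.8 CPM in WT_REL replicate 2, and Plbd1 at 13.3 CPM in mCK-hLPL_REL replicate 2. Among the other named genes, WT_WLM replicate 1 was high for Ppara (7.23 CPM) and Ppargc1a (33.9 CPM), and WT_WLM replicate 3 for Cdh19 (2.58 CPM). WT_REL replicate A was high for Cd36 (245 CPM) and low for Pprc1 (11.1 CPM) and Chad (5.18 CPM), WT_REL replicate 1 was high for Chrnd (2.37 CPM) and WT_REL replicate B for Cyp3a11 (1.76 CPM). mCK-hLPL_REL replicate 2 was high for Cd36 (277 CPM) and Cidea (3.69 CPM), replicate 3 for Srebf1 (81.9 CPM) and replicate 1 for Rsad2 (7.17 CPM). Summed red cell transcripts were 11660 CPM in mCK-hLPL_REL replicate 1 and 3110 CPM in mCK-hLPL_WLM replicate 1, and in WT_REL replicate B the Schwann cell sum was 261.9 CPM and the liver sum 239.9 CPM. The part of these libraries in the genotype differences was not tested beyond the fits that leave them out.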

How the results depend on the processing

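Against 37 genes (22 higher, 15 lower), leaving out each library in turn gave 27 to 45 genes, 15 to 26 higher and 11 to 22 lower. The count stayed between 33 and 47 with 4 group means, other scalings, other filters, limma-voom, library weights, robust moderation, the red cell or fat cell sum as a covariate, or without the library with most red cell transcripts, and 26 of the 37 were called in all 10 of the scaling, filter and test alternatives. DESeq2 called 76 (44 higher, 32 lower), which included all 37, and 4 interactions where edgeR called 0. Fewer were called without the phase term (24, with 7 lower), with a minimum log2 change of 0.5 (3, 2 higher and 1 lower), in WLM alone (2, 2 higher and 0 lower) and in REL alone (3, 2 higher and 1 lower). Without the 3 libraries with most lymph node markers 20 were called (13 higher, 7 lower), without the 3 with most liver transcripts 22 (14 higher, 8 lower), and without the 3 with most lymph node markers other than Ighm, chosen after the data were seen, 18 (11 higher, 7 lower). The causes were not tested. The numbers of the libraries were not taken to pair them. Of 21 same-number pairs, 7 had a correlation over 0.1, but pairs of unlike number were not compared, so this cannot decide if the numbers pair them. A replicate block over the 17 numbered libraries gave 13 (7 higher, 6 lower), and the same libraries with no replicate block 9 (5 higher, 4 lower). The sign turned only for uncalled genes: Angptl4 (-0.0205 with no phase term, -0.161 in WLM alone, -0.0499 to 0.191 without single libraries), Pdk4 (0.0449 and 0.0412 by voom without and with weights, 0.265 in REL alone, 0.117 without the lymph libraries other than Ighm, 0.147 with the red cell sum, -0.196 to 0.1 without single libraries), Sln (0.0256 in WLM alone, 0.0579 with the replicate block, -0.139 to 0.0602 without single libraries), Ucp3 (0.191 in REL alone, 0.0954 without those lymph libraries, 0.0659 with the red cell sum, -0.226 to 0.00361 without single libraries), Cidea (0.223 in REL alone, 0.224 without those lymph libraries, -0.758 to 0.0287 without single libraries), Chad (0.138 in WLM alone), Myog (0.051 in REL alone) and Cyp3a11 (-1.33 to 0.0139 without single libraries). The count of libraries, 10 against 9, limits what differences could pass.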
